A study of Mus musculus with 3 samples.

Results

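Natural killer (NK) cells of the bone marrow were followed in 3 single-cell RNA libraries, and 124 of 31292 kept cells made up the population described here. A cell was taken as an NK cell when at least 3 of the 6 genes Klre1, Ncr1, Klrb1c, Gzma, Prf1 and Klrk1 had a UMI (a unique molecular identifier, which marks 1 captured RNA molecule) and none of Cd3e, Cd3d and Cd3g had one. Cells were kept when they held at least 200 genes and at most 5% mitochondrial UMIs, which left 31292 of 36035 barcodes. Since the measured RNA chose the cells, the levels of these rule genes and of the Cd3 genes are given as a description only.

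The libraries came from C57BL/6 males and are called Control, IR and IR+CBD here. Their labels name control, 6.0 Gy gamma-irradiation and CBD treatment, and the other details are from the authors' methods. Control was not irradiated. IR received 6.0 Gy of gamma rays from Cobalt-60, with the solvent of soybean oil and DMSO. IR+CBD received the same irradiation, with cannabidiol in that solvent injected into the peritoneum before and after exposure. Femoral marrow was taken on day 14, and Lin-Kit+, Lin-Kit- and Lin+ cells of 3 mice were sorted, mixed 5 to 4 to 1 and run as 1 library for each group. Every share below is therefore a share of that mix, and differences between mice, sorts or preparations cannot be told apart from those of the treatment. With 1 library in each group no test between groups was possible, and all intervals in parentheses are 95% intervals that cover counting error only. Where 3 values are listed together they follow the order Control, IR and IR+CBD.

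NK cells are innate lymphocytes that kill infected or transformed cells by releasing granzymes and the pore-forming protein perforin, and that secrete interferon-gamma and chemokines. They arise in the bone marrow, where immature cells carrying CD27 give way to mature cells carrying CD11b (Itgam) and KLRG1. Their activity is set by a balance of activating receptors and of inhibitory receptors for MHC class I, which in mice include the Ly49 family encoded by the Klra genes.

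The label was set beside markers that the rule did not use. The 14 other NK markers summed to 6540, 10049 and 9367 CPM (UMIs per 1000000), against 337, 314 and 385 CPM in all other kept cells. Eomes or Tbx21, the T-box factors of the lineage, had a UMI in 61 of 76 Control cells, 21 of 23 IR cells and 23 of 25 IR+CBD cells. Cd4 and Cd5 had no UMI in any of these cells, and Cd8a and Cd8b1 had 1 UMI each, both in Control. Of the 13 T-cell markers, 3, 4 and 6 were at 0. Their summed level was 600 CPM in Control, 621 in the IR library and 529 in the IR+CBD library, most of it from Trbc1, Trbc2, Cd28 and Cd247. That lay above the 38.1, 21.9 and 21.0 CPM of all other kept cells. Trac, the constant part of the T-cell receptor alpha chain, had a UMI in 5 Control, 3 IR and no IR+CBD cell, and Trdc, that of the delta chain, in 13, 1 and 3 cells, so that the presence of T cells among the selected cells was not tested further. Just outside the threshold lay 54 Control, 34 IR and 41 IR+CBD cells with at least 3 rule genes and a Cd3 UMI, and 10, 9 and 6 cells with exactly 2 rule genes and no Cd3 UMI. Within it, 11, 2 and 2 cells passed with exactly 3 rule genes.

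Depth was uneven among the selected cells. They held a median of 5873.5 UMIs in Control, 8333 with IR and 5914 with IR+CBD, against 12479.5, 14211 and 12502 over all kept cells, and they ranged from 1543 to 142662, from 2703 to 85071 and from 3971 to 30674. Cells above 15000 UMIs numbered 17, 7 and 4 and held 64.2%, 68.2% and 43.6% of the summed NK UMIs, so levels were also summed over the 59, 16 and 21 cells of at most 15000 UMIs, called the shallower cells below, and these are given for the genes a comparison turns on where they turn a direction or move a ratio by over 1.5 times. Leaving out cells with 2 or more UMIs of at least 2 B-lineage, monocyte or progenitor markers left 38, 9 and 15 cells. These are called the cells without RNA of other lineages below, although neutrophil and erythroid markers were not part of that filter. Neutrophil markers still summed to 1386, 786 and 14523 CPM in them, with 1308 UMIs in 1 IR+CBD cell. Scrublet, a doublet caller, scored the kept cells, and those with the highest scores were marked. The marked share, 8.53%, 8.27% and 8.22% of kept cells, was set beforehand from the number of kept cells. It took in 18, 10 and 7 of the NK cells, which is 23.7%, 43.5% and 28%. RNA of other lineages was present in some of them, as the sum of 12 B-lineage markers reached 22280 CPM in IR against 1149 in Control and 795 in IR+CBD, with 7158 Igkc UMIs in 1 IR cell, and was 421, 851 and 1191 CPM in the cells of at most 15000 UMIs. Neutrophil markers reached 7459, 7119 and 7959 CPM over all NK cells and 1246, 18389 and 9967 CPM at that lower depth. The 10 monocyte markers summed to 551, 2539 and 517 CPM over all NK cells, where 5 of the 6 deep enough were past 2-fold higher in IR than in Control, and to 496, 592 and 733 CPM in the shallower cells. Between 35 and 51 barcodes were shared by a pair of libraries, and none of them belonged to an NK cell.

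NK cells were less frequent in both irradiated libraries. They numbered 76 of 10674 kept cells in Control, or 0.712% (0.561 to 0.890), 23 of 10345 in IR, or 0.222% (0.141 to 0.333), and 25 of 10273 in IR+CBD, or 0.243% (0.158 to 0.359). The share in IR was 0.312 times that in Control (0.187 to 0.503), and that in IR+CBD was 0.342 times (0.208 to 0.543), 2 comparisons that share the Control library. IR+CBD stood at 1.09 times IR (0.596 to 2.02), an interval that reaches from a lower to a doubled share, so a difference between the irradiated libraries was not detectable at this number of cells. Without the cells holding RNA of other lineages that ratio was 1.68 (0.688 to 4.35). T cells, taken as other cells with at least 2 of the 3 Cd3 genes, were at 0.465 times their Control share in IR (0.337 to 0.636) and 0.508 times in IR+CBD (0.371 to 0.688). B-lineage cells, with UMIs of both Cd79a and Cd79b, were at 1.19 and 1.02 times. The ratio of IR to Control lay between 0.231 and 0.452 under all 17 settings of the rule and of the cell filters.

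**Figure D1:**
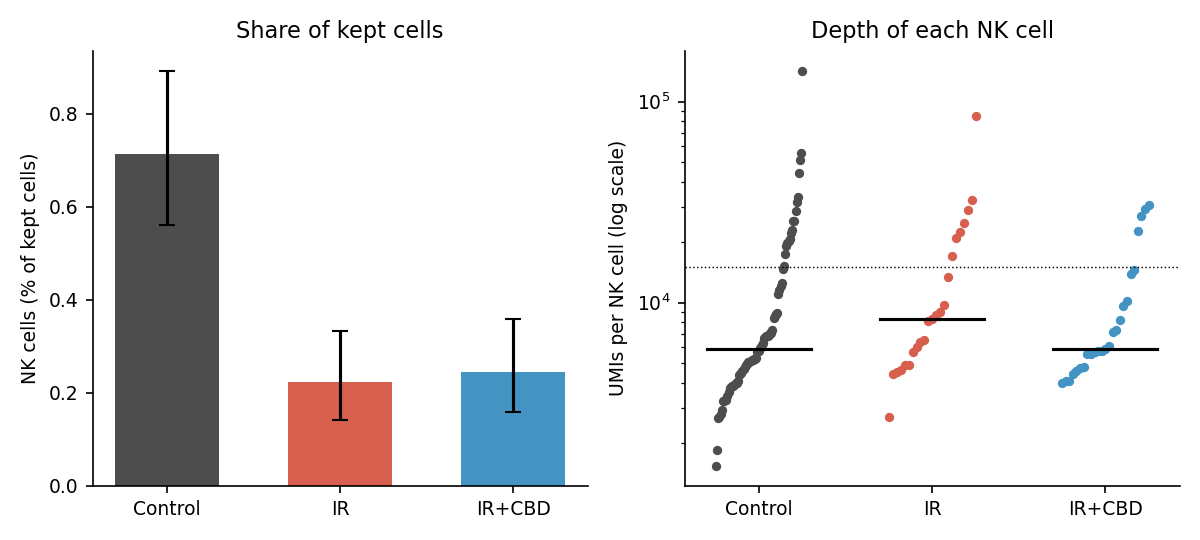
Left, NK cells as a percent of kept cells in each library, with exact 95% intervals for counting error. Right, the UMIs of every NK cell on a log axis, with the median as a line and 15000 UMIs dotted: Control stood at 0.712%, IR at 0.222% and IR+CBD at 0.243%, and 17, 7 and 4 cells lay above the dotted line.

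Against all other kept cells, the genes that stood highest in NK cells by the ratio of mean CPM were Klra8, Gzma, Klri2, Ncr1, Klra4, Klrb1a, Klrb1b, Eomes, Klra3 and Ifng. They were followed by Klre1, Klra9, Prf1, Gm43647, Xcl1, Klrb1c, Klrc2, Klra7, Il2rb and Sh2d1a. Of these 20 genes 5 belong to the rule, and 5 are Ly49 receptors, whose near-identical sequences can share reads, so that the level of each Klra gene is uncertain. Klrk1, which encodes the activating receptor NKG2D, was the most often detected rule gene in Control, with a UMI in 75 of 76 cells. Ncr1, the receptor NKp46, was at 271 CPM in Control while IR had 244 and IR+CBD 342, and at 605, 592 and 458 CPM in the shallower cells, where IR+CBD was the lowest.

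Genes of the cytotoxic granule stood higher in IR, with granzyme B far ahead. Gzmb was at 46.4 CPM in Control, 571 in the IR library and 195 in the IR+CBD library, from 43, 194 and 49 UMIs. The IR level was 12.3 times that of Control (8.81 to 17.6), the IR+CBD level 4.20 times (2.73 to 6.49), and IR+CBD stood at 0.342 times IR (0.244 to 0.469). The order held in the shallower cells, at 78.2, 1601 and 282 CPM, and in those without RNA of other lineages, at 120, 2028 and 327 CPM. A Gzmb UMI was found in 24 of 76 Control cells, 18 of 23 IR cells and 15 of 25 IR+CBD cells. To set cells of unlike depth side by side, the share expected with 2000 UMIs drawn from each cell was computed, leaving out 2 Control cells below that depth and none in IR or IR+CBD. That share was 13.8% (6.87 to 23.8) in Control, against 66.0% (43.5 to 84.2) in IR and 35.7% (17.8 to 57.2) in IR+CBD. B-lineage cells, which should lack Gzmb, gave 0.0326%, 0.0536% and 0.0892% in the same way, with median depths of 4149.5, 3882.5 and 3432 UMIs. The Control and IR intervals did not overlap, and that of IR+CBD overlapped each of them.

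The rule genes of the granule are described beside it. Gzma, the granzyme A gene, had a UMI in 56 of 76 Control cells, 21 of 23 IR cells and 22 of 25 IR+CBD cells, with a median of 7.5, 56 and 33 UMIs per cell. Its summed level was 1165 CPM in Control while IR had 4301 and IR+CBD 3429, and 2795, 11818 and 5456 CPM in the shallower cells. Prf1, which encodes perforin, was at 66.8, 268 and 103 CPM, and at 150, 768 and 176 CPM there. Cells with UMIs of both granzymes made up 21 of 76 in Control, 18 of 23 in the IR library and 15 of 25 in the IR+CBD library. Gzmb without Gzma was found in 3 Control cells and in no irradiated one.

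**Figure D2:**
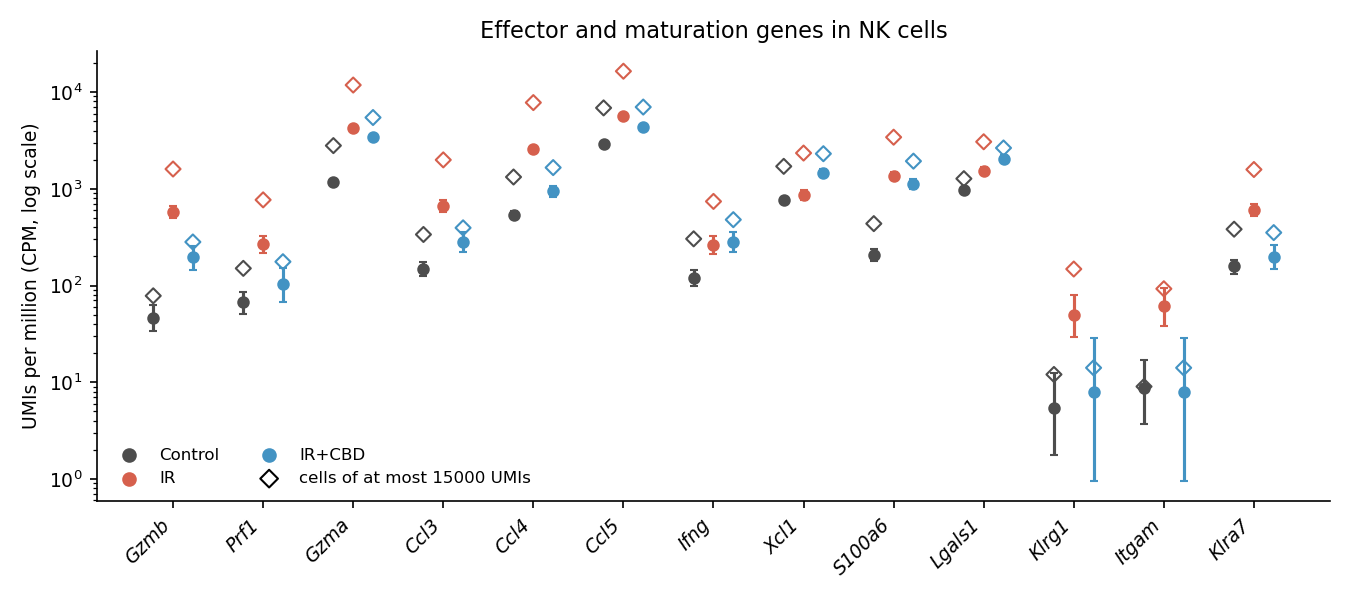
CPM of effector and maturation genes in the NK cells of each library on a log axis, with circles and exact Poisson 95% intervals for all NK cells and open diamonds for those of at most 15000 UMIs. Gzmb stood at 46.4, 571 and 195 CPM in Control, IR and IR+CBD, and its diamonds at 78.2, 1601 and 282 CPM.

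Of the 16 granule genes with at least 20 UMIs in Control and IR together, 13 were higher in IR, and the median log2 ratio was 0.44 against -0.02 over all 7418 genes measured that deeply. Past 2-fold higher were 3 of them, where 4.62% of all genes were past 2-fold higher and 5.61% past 2-fold lower, 10.2% in all. Besides Gzmb these were Ctsc, the cathepsin that activates granzymes, at 49.6 CPM in Control, against 129 in IR and 75.6 in IR+CBD, and Serpinb9, an inhibitor of granzyme B that protects the killer cell itself. The highest Ctsc counts, 18 UMIs in Control and 12 and 10 in IR, lay in cells above 15000 UMIs. No shallower cell of any library had more than 2, and the part of other lineages' RNA in Ctsc was not tested. Serpinb9 was at 65.8, 197 and 211 CPM, 3.0 times Control in IR (2.09 to 4.31) and 3.21 times in IR+CBD (2.18 to 4.71), and in the cells of at most 15000 UMIs at 144, 315 and 261 CPM. Nkg7, a granule membrane protein, was at 1076 CPM in Control while IR had 1462 and IR+CBD 1750.1, but at 2031, 3276 and 2524 CPM in the shallower cells, where IR+CBD lay below IR. Srgn, the proteoglycan that packs granule contents, was lower in IR than in Control, at 747 against 1058 CPM, and matched it in the shallower cells at 1036 and 1038 CPM. Fasl, a death ligand, gave 28, 38.2 and 35.8 CPM from no more than 26 UMIs, with intervals of every ratio reaching 1.

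Several chemokine genes were also highest in IR. Ccl4, which attracts monocytes and T cells, was at 538 CPM in Control, 2565 in the IR library and 939 in the IR+CBD library, 4.77 times Control in IR (4.27 to 5.33) and, for IR+CBD, 0.366 times IR (0.316 to 0.423). It was found in 45 of 76, 19 of 23 and 17 of 25 cells, and the shallower cells held 1324, 7783 and 1656 CPM. In both irradiated libraries 1 cell stood apart, with 352 Ccl4 UMIs in IR and 102 in IR+CBD, against 77 and 28 in the next. The median UMIs per cell were 2, 21 and 1, and 1, 39.5 and 4 in the shallower cells. In the cells without RNA of other lineages Ccl4 was at 1952, 11640 and 1202 CPM, so that IR+CBD lay below Control there at 0.615 times (0.493 to 0.763). Ccl3 gave 148, 665 and 282 CPM, but 1 IR cell held most of its IR UMIs. Ccl5, the most abundant of them, was at 2908, 5598 and 4323 CPM, 1.93 times Control in IR (1.81 to 2.04) and 1.49 times in IR+CBD (1.38 to 1.60). In the cells of at most 15000 UMIs Ccl5 reached 16427 CPM in IR against 6860 in Control and 6999.7 in IR+CBD, so the higher level of IR+CBD over Control was nearly absent there, at 1.02 times (0.946 to 1.10).

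Among other cytokine genes the order of the irradiated libraries varied with depth. Ifng, the interferon-gamma gene, was at 121 CPM in Control, against 262 in IR and 282 in IR+CBD, 2.17 times Control in IR (1.62 to 2.89) and 2.34 times in IR+CBD (1.71 to 3.18). In the shallower cells Ifng stood highest in IR, at 304, 740.4 and 479 CPM, and IR+CBD was at 0.647 times IR (0.462 to 0.906). Xcl1, the chemokine that draws cross-presenting dendritic cells, was at 768, 868 and 1459.7 CPM and was found in 65 of 76, 12 of 23 and 23 of 25 cells. The excess of IR+CBD over IR, at 1.68 times (1.44 to 1.97), was absent from the sums of the shallower cells, at 1706, 2341 and 2305 CPM and 0.984 times (0.833 to 1.16). In those sums 1 IR cell held 113 Xcl1 UMIs, where no other IR cell had more than 35. The median Xcl1 UMIs per shallower cell were 5, 7.5 and 17. At equal depth its share was 64.1% in Control while IR had 45.2% and IR+CBD 75.6%, with B-lineage cells at 0.131%, 0.0217% and 0.0340%. Ltb, the lymphotoxin beta gene, was lower in IR, at 53 CPM against 111 in Control and 203 in IR+CBD, and 0.477 times Control (0.272 to 0.792). The shallower cells held 241, 130 and 268 CPM of Ltb, with IR+CBD at 1.11 times Control (0.736 to 1.66). Tnf gave 42, 2 and 13 UMIs, in 23, 1 and 6 cells, and its ratio of IR to Control was 0.130 (0.0152 to 0.499). Over the 9 cytokine and chemokine genes deep enough in IR and Control, 6 were higher in IR and the median log2 ratio was 0.47.

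Genes of the mature, CD11b-associated state were also higher in IR. Of 16 deep enough, 13 were higher and 6 past 2-fold, where 4.62% of all genes were past 2-fold higher, with a median log2 ratio of 0.70, against -0.05 for the same list in all other kept cells and 0.22 in the NK cells without RNA of other lineages. S100a6, a calcium-binding protein gene, was at 208 CPM in Control, 1356 in the IR library and 1109.7 in the IR+CBD library. Its ratio to Control was 6.52 in IR (5.50 to 7.75) and 5.33 in IR+CBD (4.42 to 6.44), 7.83 and 4.43 in the shallower cells, and 6.07 and 3.40 in those without RNA of other lineages. At equal depth S100a6 was found in 34.5%, 73.2% and 61.8% of NK cells, with 7.37%, 5.85% and 5.71% of B-lineage cells. Lgals1, the galectin-1 gene, was at 968, 1539 and 2044 CPM and stood at 1.59 and 2.11 times Control, but in the shallower cells at 2.41 and 2.08 times, where IR was the highest at 3063 CPM. S100a4 gave 80.9, 247 and 163 CPM, yet 169, 204 and 254 CPM in the shallower cells, where the ratio of IR to Control was 1.21 (0.703 to 2.01). Klrg1, the inhibitory receptor of terminally mature NK cells, had 5 UMIs in Control, against 17 in IR and 2 in IR+CBD, and the ratio was 9.28 for IR to Control (3.29 to 32.2) and 0.159 for IR+CBD to IR (0.0178 to 0.670).

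Itgam, which encodes CD11b, had 8, 21 and 2 UMIs, in 7 of 76 Control cells, 13 of 23 IR cells and 1 of 25 IR+CBD cells. The ratio of IR to Control was 7.16 (3.05 to 18.7), and 10.3 (2.64 to 58.0) in the cells of at most 15000 UMIs. At equal depth the shares were 1.98%, 14.8% and 1.89%, and B-lineage cells gave 1.79%, 2.01% and 2.10%, so the Control and IR+CBD shares were at the level of these cells and that of IR lay above it. Itgam is also expressed by monocytes and neutrophils, so marker UMIs of cells with and without it are given, not scaled for depth. In Control the monocyte markers had medians of 5 and 3 UMIs, and the neutrophil markers 7 in both. The NK markers outside the rule had medians of 152 and 112.5 UMIs in IR. Among the 13 IR cells with Itgam the monocyte markers had a median of 4 UMIs and reached 233, and the neutrophil markers a median of 12 and reached 979, against medians of 3 and 4.5 and highest values of 90 and 17 in the other IR cells. The 1 IR+CBD cell with Itgam held 45 monocyte and 1308 neutrophil marker UMIs. In the cells without RNA of other lineages, a filter that did not use neutrophil markers, Itgam was found in 2 of 38, 4 of 9 and 1 of 15 cells. The 1 IR+CBD cell was again that with 1308 neutrophil marker UMIs. The ratio of IR to Control was 6.38 there, with an interval that reaches 1 (0.915 to 70.6). The part of myeloid RNA in the Itgam values was not tested further. Cd27 was found in 37 of 76, 9 of 23 and 6 of 25 cells. Its share at equal depth was 18.3% in Control while IR had 12.5% and IR+CBD 9.39%, where B-lineage cells gave 3.18%, 2.31% and 2.09%.

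Sorted by these 2 genes, 34 Control cells had Cd27 without Itgam, 3 had both, 4 had Itgam alone and 35 had neither. In IR the counts were 2, 7, 6 and 8, and in IR+CBD they were 5, 1, 0 and 19. Most cells of the IR+CBD library had a UMI of neither gene. Among the cells without RNA of other lineages the counts were 15, 0, 2 and 21 in Control, 2, 2, 2 and 3 in IR, and 3, 1, 0 and 11 in IR+CBD. Among the cells of at most 15000 UMIs the counts were 25, 0, 3 and 31 in Control, 2, 4, 4 and 6 in IR, and 4, 1, 0 and 16 in IR+CBD. A cell without a UMI may still express the gene at this depth.

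**Figure D3:**
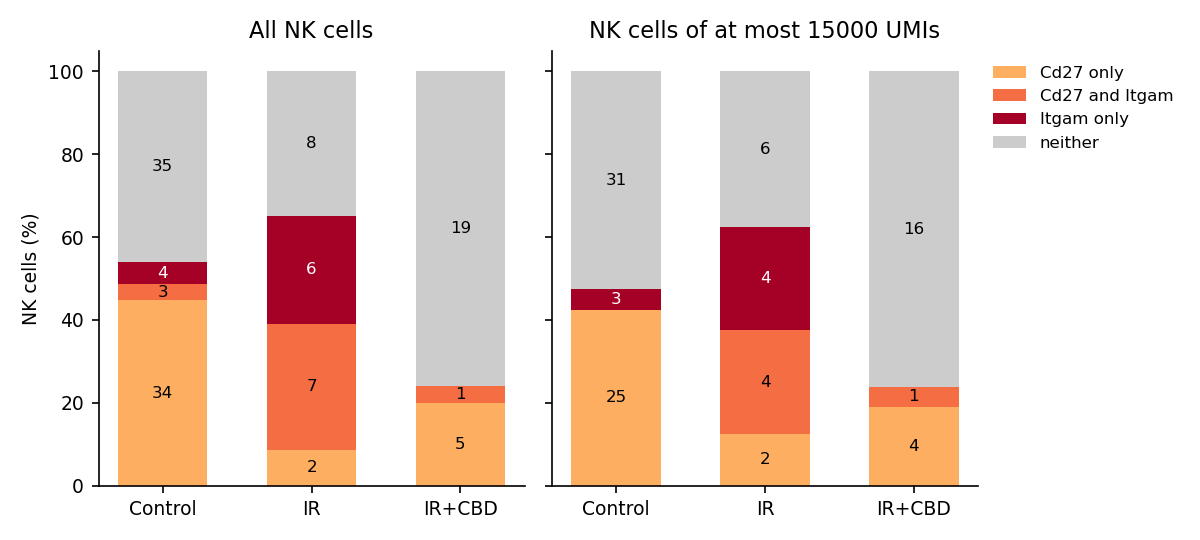
NK cells of each library by detection of Cd27 and Itgam, as a percent of that library's NK cells, for all cells (76, 23 and 25) and for those of at most 15000 UMIs, with the number of cells written in each bar. Cells with Itgam made up 13 of 23 in IR, 7 of 76 in Control and 1 of 25 in IR+CBD.

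The immature, CD27-associated list gave no common direction. Of 16 genes 7 were higher in IR than in Control and 9 lower, with a median log2 ratio of -0.24. Il7r, the interleukin-7 receptor gene, had 56 UMIs in 15 Control cells, 2 in 1 IR cell and none in IR+CBD, so that Control stood at least 5.06-fold above IR+CBD when the 0 is set to a floor of 3 counts. The ratio of IR to Control was 0.0975 (0.0115 to 0.369). Of the 56 Control UMIs 19 lay in 1 cell above 15000 UMIs, and no shallower Control cell had more than 3. B-lineage cells, which do not lack Il7r, had a UMI in 54.9%, 49.6% and 49.0% of cells. Tcf7, the factor TCF-1 of early NK cells, was at 94.9, 73.5 and 99.4 CPM, but in the cells of at most 15000 UMIs at 184, 9.25 and 120 CPM, the IR value resting on 1 UMI. Its ratio of IR to Control was 0.775 over all cells (0.476 to 1.22) and 0.0504 at the lower depth (0.00126 to 0.292). Emb, an immunoglobulin-family membrane protein gene, was at 422, 297 and 394 CPM, and at 620, 194 and 479 CPM in the shallower cells. Ctla2a was at 444, 282 and 597 CPM, and at 746, 703 and 846 CPM there, so that its lower value in IR was nearly absent. Kit, with 41, 10 and 6 UMIs, had intervals reaching 1 in each comparison.

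Among the Ly49 receptors, 1 gene stood apart. Klra7, listed for the inhibitory receptor Ly49G, was at 157 CPM in Control, 603 in the IR library and 199 in the IR+CBD library, 3.83 times Control in IR (3.08 to 4.77), and IR+CBD stood at 0.330 times IR (0.237 to 0.451). The shallower cells held 382, 1582 and 352 CPM of Klra7, and those without RNA of other lineages 212, 2138 and 327 CPM. It was found in 27 of 76, 15 of 23 and 8 of 25 cells, and at equal depth in 21.7% (13 to 32.9), 55.7% (33.7 to 76.1) and 22.4% (8.35 to 43.4), with at most 0.0410% of B-lineage cells. The other 5 Ly49 genes with enough UMIs were lower in IR than in Control in the summed counts. Klra8, for the activating receptor Ly49H, was at 287, 200.04 and 223 CPM, and Klra4, for Ly49D, at 328, 197 and 155 CPM. In the shallower cells Klra8 gave 572, 629 and 395 CPM and Klra9 144, 148 and 155 CPM, so their direction in IR depended on the deep cells, while Klra4 gave 677, 583 and 275 CPM. Klra1 had 36, 1 and 6 UMIs, in 8, 1 and 2 cells, a ratio of 0.0758 for IR to Control (0.00187 to 0.450). A median of 2 Klra genes was detected per cell in Control, against 2 in IR and 1 in IR+CBD, and 21 of 76, 4 of 23 and 9 of 25 cells had none. Since these genes are near copies, a shift of reads between them was not tested.

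The remaining receptors were mostly level or lower in IR. Klrd1, which encodes CD94, was at 409, 609 and 672 CPM, with ratios to Control of 1.49 in IR (1.25 to 1.77) and 1.65 in IR+CBD (1.36 to 1.98), and of 1.25 and 1.00 in the shallower cells. Its inhibitory partner Klrc1 (NKG2A) was at 129 CPM in Control while IR had 67.7 and IR+CBD 147, 0.523 times Control in IR (0.319 to 0.822), while the activating partner Klrc2 (NKG2C) was at 105, 126 and 67.6 CPM. The shallower cells held 262, 185 and 247 CPM of Klrc1 and 232, 333 and 106 CPM of Klrc2. Klrc1 and Klrc2 are close in sequence and may share reads. Slamf7, a receptor of activated lymphocytes, was at 48.5, 141 and 55.7 CPM, 2.91 times Control in IR (1.90 to 4.47), though B-lineage cells do not lack it: at equal depth 20.1%, 27.7% and 23.7% of them had a UMI, against 13%, 32.1% and 15.6% of NK cells. Of 14 receptors outside the Ly49 family 4 were higher in IR and 10 lower, with a median log2 ratio of -0.26. Among receptor adaptors, Tyrobp (DAP12) was at 1133, 1456 and 1674 CPM, Fcer1g at 765, 912 and 1066 CPM, and Hcst (DAP10), the partner of NKG2D, at 248, 168 and 310.2 CPM. In the shallower cells IR was the highest for Tyrobp and Fcer1g, at 2245, 3267 and 2643 CPM and at 1429, 2018 and 1565 CPM, and Hcst gave 536, 426 and 444 CPM.

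The lineage factors were close between libraries. Eomes was at 105 CPM in Control, 129 in the IR library and 151 in the IR+CBD library, and Tbx21, which encodes T-bet, at 76.5, 79.4 and 99.4 CPM, and all their ratios had intervals reaching 1, in the shallower cells too, where they gave 193, 148 and 204 CPM and 181, 222 and 134 CPM. Id2, which holds E proteins in check, was at 312, 450.1 and 517 CPM, 1.44 times Control in IR (1.18 to 1.76) but 1.12 times in the shallower cells (0.855 to 1.45). Stat4, the factor activated by interleukin-12, was lower in IR, at 61.8 CPM against 158 in Control and 183 in IR+CBD. Its ratio was 0.390 for IR to Control (0.234 to 0.618) and 2.96 for IR+CBD to IR (1.73 to 5.22), with 0.305 and 1.97 in the cells of at most 15000 UMIs. Jak1, a kinase of the cytokine receptors, followed the same order at 499, 321 and 557 CPM, as did Bcl2, a survival factor, at 397, 224 and 402 CPM, and Klf2, a factor of lymphocyte quiescence and migration, at 250.1, 159 and 342 CPM. For Jak1 and Bcl2 the IR+CBD value in the shallower cells was nearer to IR, at 592 against 537 CPM and at 557 against 435 CPM, with Control at 999 and 797 CPM.

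Receptors for cytokines and for homing gave smaller differences. Il2rb, the shared beta chain for interleukins 2 and 15 on which NK cells depend, was at 354, 385 and 628 CPM, and at 797, 722 and 768 CPM in the cells of at most 15000 UMIs, where the libraries were close. Of the 15 homing and adhesion genes 12 were higher in IR than in Control, with a median log2 ratio of 0.43. Itgb2, the beta chain shared by LFA-1 and CD11b, was at 52.8, 103 and 131 CPM, 1.95 times Control in IR (1.23 to 3.07) and 2.48 times in IR+CBD (1.55 to 3.94). Itga4, the alpha chain of VLA-4, was at 209, 379 and 326 CPM, and in the shallower cells at 364, 453 and 331 CPM, with IR+CBD no longer above Control. Ccr2 gave 215, 324 and 227 CPM, but 373, 361 and 310.2 CPM there, and Cxcr4, the receptor that retains cells in the marrow, 49.6, 35.3 and 59.7 CPM with intervals reaching 1. Cd44, a hyaluronan receptor, was lowest in IR, at 115 CPM against 169 in Control and 278 in IR+CBD.

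Interferon-stimulated genes were higher in the NK cells of IR. Of 41 deep enough in IR and Control, 37 were higher in IR and 21 were past 2-fold higher, where 4.62% of all genes were. The median log2 ratio was 1.03, against 0.72 for the same list in all other kept cells. It was 0.51 in the shallower cells, 0.44 with the rule applied at 2000 UMIs and 0.21 in the cells without RNA of other lineages, so its size, though not its direction, depended on which cells were summed. As a percent of each cell's UMIs the 80 listed genes ran from 0.171 through a median of 0.434 to 2.77 in Control, from 0.415 through 0.696 to 1.33 in IR, and from 0.196 through 0.538 to 1.03 in IR+CBD, so the cells of the 3 libraries overlapped.

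Single genes of the list showed how few molecules carried it. Ifi27l2a, a mitochondrial protein gene induced by interferon, had 7 UMIs in Control, against 147 in IR and 7 in IR+CBD, in 6, 14 and 4 cells. That is 7.55, 432 and 27.8 CPM, a ratio of 57.3 for IR to Control (27.1 to 145) and of 0.0644 for IR+CBD to IR (0.0254 to 0.136). All other kept cells held 70.5, 433 and 68.1 CPM of it, and B-lineage cells showed it more often than NK cells at equal depth, in 28.8%, 80.3% and 36.6% against 1.25%, 42.4% and 5.81%, and the part of free RNA in the NK value was not tested. Isg15, a ubiquitin-like modifier, was at 24.8, 82.4 and 79.5 CPM, 3.32 times Control in IR (1.85 to 6.04), and in the shallower cells at 36.1, 83.3 and 14.1 CPM, the last from 2 UMIs. In the cells without RNA of other lineages Isg15 had 10, 2 and 2 UMIs and stood at 0.638 times Control in IR (0.0680 to 3.0). Igtp, a GTPase induced by interferon-gamma, was at 15.1, 55.9 and 39.8 CPM, 3.70 times (1.76 to 7.98), against 2.31 times (0.660 to 7.58) in the shallower cells and 1.06 times (0.105 to 5.95) without RNA of other lineages. Bst2 (tetherin) was at 133, 271 and 159 CPM, 2.04 times (1.54 to 2.70). Ly6a gave 9.70, 409 and 11.9 CPM, but 1 IR cell held most of its UMIs.

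Genes of MHC class I and of peptide loading were higher in IR as well. All 20 that were deep enough were higher in IR than in Control, 4 of them past 2-fold, where 4.62% of all genes were past 2-fold higher. The median log2 ratio was 0.64, with 0.57 in the shallower cells, 0.81 in those without RNA of other lineages and 0.47 in all other kept cells. B2m, the light chain of every class I molecule, was at 1470.5 CPM in Control while IR had 2315 and IR+CBD 2311, 1.57 times Control in IR (1.44 to 1.72) and 1.57 times in IR+CBD (1.42 to 1.73). H2-K1 gave 1078, 1877 and 1985 CPM, H2-D1 1077, 1689 and 1432 CPM, and H2-Q7, a non-classical gene, 287, 674 and 719.9 CPM. H2-T23, which encodes the ligand Qa-1 of CD94 with NKG2A, was at 129, 306 and 259 CPM, 2.36 times Control in IR (1.80 to 3.10). The H2 genes are near copies, so their single levels are uncertain. In the cells of at most 15000 UMIs H2-Q7 was at 611, 1490.0 and 959 CPM and H2-K1 at 1811, 3026 and 2390 CPM, with IR+CBD between the others for each. Psmb8, a subunit of the immunoproteasome, was at 430.2, 603 and 545 CPM, and at 349, 814 and 500.5 CPM in the shallower cells. Tap1, the peptide transporter, was at 52.8, 91.2 and 35.8 CPM, and at 39.1, 83.3 and 49.3 CPM there.

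The promoters of 3 of these genes are shown because they carry the letters of the interferon-stimulated response element, to which IRF factors bind. The windows are RefSeq sequence of build GRCm38.p6, from 250 bases before to 50 after the start of each gene, written 5′ to 3′ on the gene's strand. Capitals mark matches to GAAA, any 2 bases and GAAA again or, for the other strand, TTTC, any 2 bases and TTTC, and neighbouring matches run together where they overlap. Isg15 is at chr4:156200769-156201068 on the minus strand and holds 3 overlapping matches from base 173, Igtp is at chr11:58199306-58199605 on the plus strand and holds 1 from base 217, and B2m is at chr2:122147437-122147736 on the plus strand and holds 1 from base 112.
Isg15: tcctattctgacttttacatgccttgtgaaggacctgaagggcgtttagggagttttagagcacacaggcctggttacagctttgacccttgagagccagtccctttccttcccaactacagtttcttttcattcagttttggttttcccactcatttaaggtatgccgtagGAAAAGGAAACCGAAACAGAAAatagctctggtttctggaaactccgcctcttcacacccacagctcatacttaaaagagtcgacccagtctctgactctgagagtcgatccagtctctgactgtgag
Igtp: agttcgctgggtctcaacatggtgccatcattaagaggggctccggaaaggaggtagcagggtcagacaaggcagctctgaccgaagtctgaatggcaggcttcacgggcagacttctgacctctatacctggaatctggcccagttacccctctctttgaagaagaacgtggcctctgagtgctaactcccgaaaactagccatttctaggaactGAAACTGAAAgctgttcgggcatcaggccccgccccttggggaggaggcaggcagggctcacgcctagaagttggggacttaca
B2m: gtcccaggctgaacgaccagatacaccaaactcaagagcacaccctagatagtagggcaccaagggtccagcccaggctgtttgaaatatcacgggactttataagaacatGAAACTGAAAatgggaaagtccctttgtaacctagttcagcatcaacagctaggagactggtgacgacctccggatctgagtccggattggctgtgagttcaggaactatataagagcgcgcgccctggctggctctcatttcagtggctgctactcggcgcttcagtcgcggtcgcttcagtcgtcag
Over all 27025 genes with such a window 3.99% held a match, against 35 of 61 listed interferon genes (57.4%), 5 of 17 MHC class I genes (29.4%), 3 of 17 granule genes (17.6%) and 0 of 16 genes of the mature list. Of the 21 interferon genes past 2-fold higher in IR 15 had a window, and 8 of these held a match: Ifitm3, Isg15, Igtp, Bst2, Eif2ak2, Trim30a, Trim30d and Irgm1. A match describes letters only and does not mark a bound site.

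**Figure D4:**
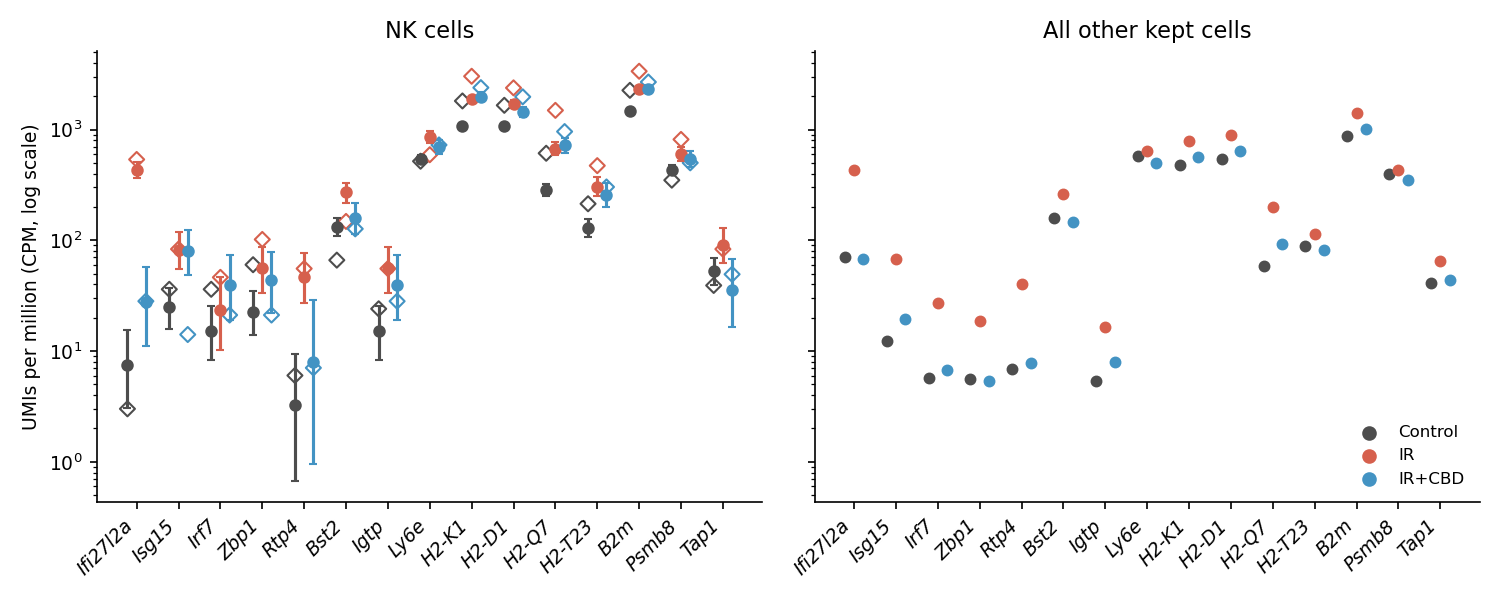
CPM of interferon-stimulated and MHC class I genes on a log axis, left in NK cells (circles with exact Poisson 95% intervals, open diamonds for cells of at most 15000 UMIs) and right in all other kept cells. Ifi27l2a stood at 7.55, 432 and 27.8 CPM in the NK cells of Control, IR and IR+CBD and at 70.5, 433 and 68.1 CPM in other cells.

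In IR+CBD against IR, a comparison that shares the IR library with the one above, 5.5% of 4926 genes were past 2-fold higher and 7.0% past 2-fold lower, 12.5% in all. Interferon genes had a median log2 ratio of -0.30, with 21 of 33 lower and 7 past 2-fold lower, and the same list was at -0.77 in all other kept cells. Of 19 MHC class I genes 15 were lower, with a median of -0.14, and -0.54 in the cells of at most 15000 UMIs. Mature genes were at -0.37, with 11 of 15 lower and Gzmb and Itgam past 2-fold. Granule genes as a list were at 0.10 and cytokine genes at -0.13, while their medians were -0.34 and -0.63 in the shallower cells. Immature genes stood at 0.48 over all cells and at -0.02 in the shallower ones. Immediate early genes were at 0.44, with 22 of 31 higher, and 0.13 at the lower depth.

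Against Control, 3.99% of 7112 genes were past 2-fold higher in IR+CBD and 9.15% past 2-fold lower, 13.1% in all. The medians of the interferon and MHC class I lists were 0.58 and 0.38, with 30 of 34 and 18 of 20 genes higher, and -0.11 and 0.25 in the cells of at most 15000 UMIs, where 10 of 22 interferon genes were higher. Granule genes were at 0.33, mature genes at 0.32 and cytokine genes at 0.80, and at 0.21, 0.07 and 0.16 in the shallower cells. The values of S100a6, Gzmb, Serpinb9 and Lgals1 stayed above those of Control at the lower depth, at 4.43, 3.6, 1.81 and 2.08 times, whereas those of Ccl4 and Xcl1 were at 1.25 and 1.35 times.

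**Figure D5:**
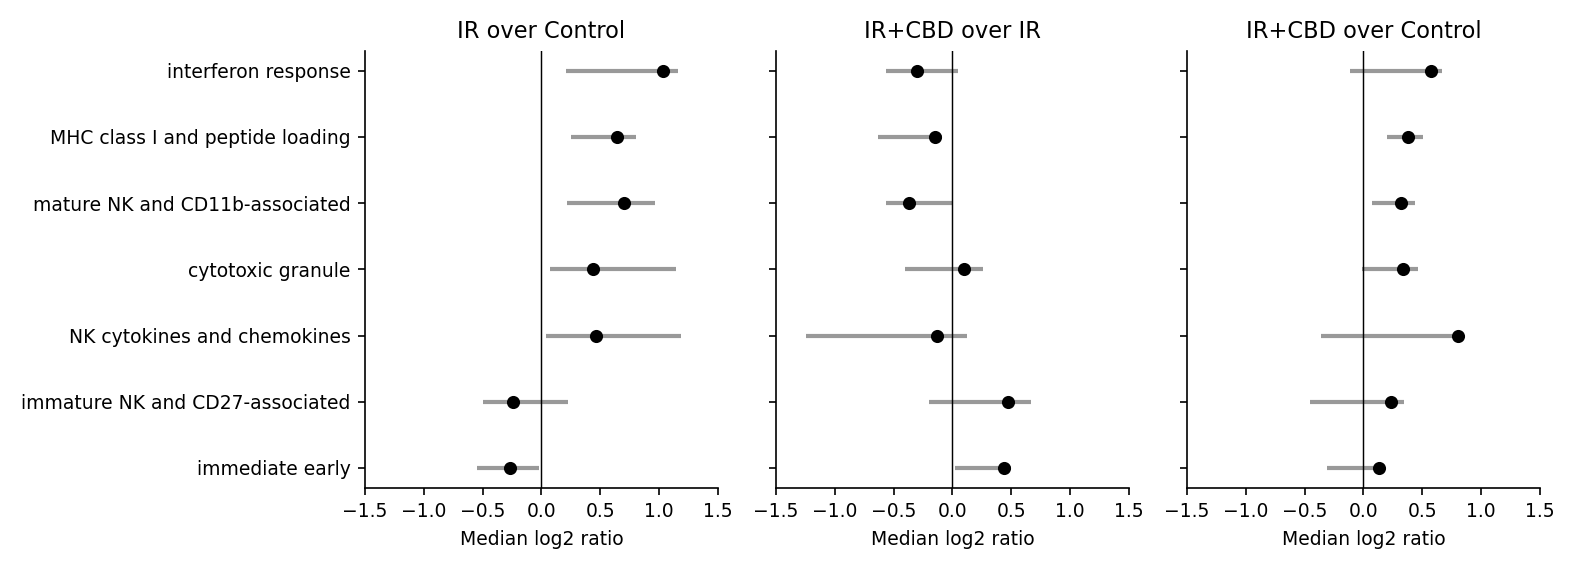
Median log2 CPM ratio of 7 gene lists in NK cells for the 3 comparisons, with a point for the value given in the text and a grey line for its range over 23 settings of the rule, filters and scaling. For IR over Control the lines of the interferon list (0.21 to 1.17), the MHC class I list (0.25 to 0.81) and the mature list (0.22 to 0.96) lay above 0.

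Lists of general cell functions differed less. The 53 genes of the cytosolic ribosome had a median log2 ratio of -0.25 in IR to Control, with 51 lower, and of -0.13 in the cells of at most 15000 UMIs. Immediate early genes were at -0.27, with 24 of 31 lower, and at -0.54 in all other kept cells. Jun, a subunit of the AP-1 factor, was at 735 CPM in Control, 412 in the IR library and 581 in the IR+CBD library, 0.560 times Control in IR (0.464 to 0.673). Junb was at 1106, 847 and 1269 CPM, and at 2088, 1527 and 1769 CPM in the shallower cells. Genes of oxidative phosphorylation were at -0.08 and 0.17, opposite in sign between all cells and the shallower ones. Cells with a UMI of Mki67, a marker of cycling, numbered 19 of 76, 10 of 23 and 6 of 25, of which 13, 7 and 3 held more than 15000 UMIs. The G2/M list stood at -0.96 in IR+CBD to Control over all cells and at 0.97 in those of at most 15000 UMIs, so no direction is read from it. Of 12 listed targets of cannabidiol, Gpr55, Trpv1, Trpv4, Pparg and Ppara had no UMI in any NK cell, and Cnr1 had 1, Cnr2 had 5, 0 and 6, and Trpv2 had 35, 16 and 10 in Control, IR and IR+CBD.

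Genes chosen by the size of their ratio alone were in part those of 1 cell. Highest in IR over Control were Igha, Jchain and Igkc, antibody genes whose 6007, 4136 and 21192 CPM in IR lay almost wholly in a single cell, as 1 of the 2 Igha-bearing cells held 99.95% of its UMIs. Camp, a neutrophil granule gene, was among the lowest in the same way, at 726 CPM in Control against 35.3 in IR and 31.8 in IR+CBD over all cells and at 57.2, 64.8 and 49.3 CPM in those of at most 15000 UMIs. Lgals3, the galectin-3 gene, was spread over more cells, with 17, 102 and 27 UMIs in 13, 13 and 9 cells, 18.3, 300.1 and 107 CPM, and ratios to Control of 16.4 in IR (9.74 to 29.2) and 5.86 in IR+CBD (3.08 to 11.5). In the shallower cells Lgals3 gave 36.1, 231 and 190 CPM, so that IR stood at 6.41 times Control (3.10 to 14.0) and IR+CBD at 0.823 times IR (0.460 to 1.48), against 0.358 times (0.225 to 0.552) over all NK cells, where the monocyte markers were raised in IR. Retnlg, a neutrophil gene, was at 12.9, 432 and 438 CPM, and S100a8 at 1155, 2392 and 2378 CPM, against 824, 1004 and 1153 CPM of Retnlg in all other kept cells. In the shallower cells they gave 24.1, 1333 and 761 CPM and 250, 7376 and 4060 CPM. These levels were those of few cells. Of 147 Retnlg UMIs in IR 2 cells held 75 and 67, and of 110 in IR+CBD 1 cell held 106. The 2 highest cells had 399 and 378 S100a8 UMIs in IR, and 555 and 13 in IR+CBD. The part of neutrophil RNA was not tested further. Slco3a1, a transporter gene, was lower in both irradiated libraries, at 152 CPM in Control, against 11.8 in IR and 27.8 in IR+CBD. Its UMIs numbered 141, 4 and 7, of which 27, 1 and 4 lay in the shallower cells. IR+CBD stood at 0.183 times Control (0.0723 to 0.387), and at 0.347 times in the shallower cells (0.0882 to 0.996). All other kept cells held 135, 81.4 and 99.8 CPM of Slco3a1. Among the genes highest in IR+CBD over IR, Btbd11 was at 46.4, 14.7 and 111 CPM, Map7d1 at 30.2, 11.8 and 83.5 CPM and Ltb at the values given above, and Plxnc1 and Kif1b were also among them. Cobll1 stood highest in IR+CBD, at 75.5, 97.1 and 270.5 CPM, 3.58 times Control (2.53 to 5.08), and at 120, 185 and 289 CPM in the shallower cells.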

How the data were processed

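Bone marrow cells of 3 groups were profiled by droplet RNA sequencing (3' V2 kit per the labels), 1 library for each group. The authors deposited UMI counts for each gene in each called cell, with no normalization. The submitters' processing notes name Cell Ranger 4.0 and GRCm39, whereas the matrix headers name Cell Ranger 7.0.1. Genome positions are given only for the printed promoters, from the RefSeq table of GRCm38.p6, matched by symbol.

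From these counts, summed over NK cells, CPM (UMIs per 1000000) and ratios were computed with exact Poisson, Clopper-Pearson and conditional binomial 95% intervals (Python 3.11.15, scipy 1.17.1). For log2 ratios 0.5 UMI was added to each sum, and a gene counted in a comparison had at least 20 UMIs in its 2 libraries. Shares at equal depth are the exact expectation over all draws of 2000 UMIs per cell. Their Clopper-Pearson intervals use expected numbers of cells and are approximate. By Scrublet score (scanpy 1.11.5) the highest cells were marked, at a set rate of 0.8% per 1000 kept cells in place of Scrublet's own call. Marked cells stayed in the values given. The computations were tested on simulated data.

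The cells, gene lists and comparisons were chosen with earlier results of these data known. Genes were named from those lists, or as the 10 highest and 10 lowest of each comparison by the interval bound nearest to 1 among genes with at least 50 UMIs, or as the 20 highest over other cells. Gm43647 and the rule genes were named by that last part. Alternatives varied the rule genes, Cd3 filter, depth, doublets, mitochondrial and gene limits, UMI minimum, pseudocount and scaling. 1 gene of the interferon list enters the counts and is not reported here by name.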

Additional observations from a re-analysis of the deposited data

How the results depend on the processing

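Each value was recomputed under up to 23 settings, changing 1 choice at a time, and a list counted as above the others when its median exceeded that of all genes. No paired analysis was possible because each group had 1 library. The share of NK cells kept its direction against Control throughout, with IR+CBD at 0.554 times Control when Ncr1 and the absence of T-cell genes replaced the Cd3 filter, a setting chosen after seeing the data. Median-of-ratios size factors shifted no comparison by more than 0.01 on the log2 scale.

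Counts of genes past 2-fold moved most. For IR over Control, where 759 genes were past it, they were 446 without cells holding other lineages' RNA, 202 at 50 UMIs per gene, 7102 with no minimum, 428 on sums thinned to the smallest total and 1467 with every cell weighted equally. For IR+CBD over IR, with 616, they were 217 without Scrublet doublets, 342 with the rule applied at 2000 UMIs, 153 without other lineages' RNA, 250 in cells of at most 15000 UMIs, 148 at 50 UMIs and 6503 with no minimum. For IR+CBD over Control, with 935, they were 605 without the Cd3 filter, 543 without doublets, 545 with the thinned rule, 294 without other lineages' RNA, 422 in cells of at most 15000 UMIs, 260 at 50 UMIs, 7361 with no minimum and 466 on thinned sums. The settings at 15000 UMIs and of equal weight were chosen after seeing the data. Fewer cells, genes or UMIs enter each of these except the equal weighting, the missing minimum and the missing Cd3 filter, whose cause was not tested.

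Of 20 lists, 10 lay above all genes for IR over Control and 17 without doublets. For IR+CBD over IR 12 did, with 6 without the Cd3 filter, 6 without doublets, 7 under the Ncr1 rule and 7 in cells of at most 15000 UMIs. For IR+CBD over Control 16 did, with 9 under the thinned rule and 10 with equal weight. For IR over Control the medians of the interferon, MHC class I, mature, granule and cytokine lists stayed above 0 under all 23 settings and that of immediate early genes below 0. For IR+CBD over IR, the immature list turned to -0.20 without the Cd3 filter, -0.13 without doublets, -0.0369 under the thinned rule, -0.13 under the Ncr1 rule and -0.0232 in cells of at most 15000 UMIs. Under the thinned rule the interferon list turned to 0.0499 and the mature list to 0.0011 in that comparison. For IR+CBD over Control the interferon list turned to -0.11 in cells of at most 15000 UMIs, the granule list to -0.0127 without other lineages' RNA, and the cytokine list to -0.36 under the thinned rule and -0.18 without other lineages' RNA. The causes of these turns were not tested. At equal depth 221 of the listed genes with at least 20 UMIs were found in a larger share of IR than of Control cells. That number was 219 at 1000 UMIs and 282 at full depth. These counts are compared across depths only. The same share over all genes was not computed, so no direction in IR is read from them.

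With 23 and 25 irradiated NK cells, a gene with few UMIs could not be compared closely, and 0 of 25 cells with a UMI of a gene allows a share of cells with a UMI of up to 13.7% by its exact interval, which limits detection and not expression. Deep cells, doublet marks and RNA of other lineages differed between the libraries, and their part in each summed level was not tested beyond the values given.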

Other observations

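The 12 listed markers of innate lymphoid cells of types 1 and 2 were unevenly detected. They summed to 411, 285 and 473 CPM in Control, IR and IR+CBD, against 250, 164 and 174 CPM in all other kept cells. Gata3 had 52, 18 and 17 UMIs, in 34, 11 and 8 cells, and Rora had 87, 40 and 43, in 24, 7 and 10 cells. Tmem176a was found in 21, 3 and 6 cells and Tmem176b in 23, 5 and 4, while Il13 and Areg had no UMI in any NK cell. Itga1, a marker of tissue-resident type 1 innate lymphoid cells, had 3, 7 and 1 UMIs, and Cxcr6, another, had 7, 0 and 1. Havcr2, which encodes the checkpoint receptor TIM-3, had no UMI in any of the NK cells, and Pdcd1, which encodes PD-1, had 2, 1 and 0.

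Per cell, the share of UMIs from the mature list ran from 0.0854% through a median of 0.713% to 3.08% in Control, from 0.110% through 1.73% to 5.36% in IR, and from 0.310% through 1.31% to 5.69% in IR+CBD, so the libraries overlapped widely. That of the 12 Ly49 genes had medians of 0.0867%, 0.263% and 0.0437%, with a lowest value of 0 in each library. Cdkn1a, the p21 gene of the p53 response, was at 71.2, 76.5 and 151 CPM in Control, IR and IR+CBD, and at 54.2, 27.8 and 219 CPM in the cells of at most 15000 UMIs, from 3 UMIs in IR there. In IR+CBD 25 of its 38 UMIs lay in 1 cell of at most 15000 UMIs, and no other IR+CBD cell had more than 5. Trp53inp1, of the same response, was at 24.8, 132 and 27.8 CPM over all cells and at 45.1, 55.5 and 49.3 CPM in the shallower ones. In IR 1 cell above 15000 UMIs held 37 Trp53inp1 UMIs, and no other IR cell had more than 2.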
